A study of Mus musculus with 12 samples.

Results

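The mouse microRNA miR-708 was followed through its 2 mature arms, mmu-miR-708-5p and mmu-miR-708-3p, which are 2 of the 1978 mature miRNAs counted. They were chosen by their measured levels, for a large excess of counts in embryonic over trophoblast stem cells in these same libraries. That excess is therefore described here and not tested. Counts of mature miRNAs were available for 4 groups: paused embryonic stem cells (ESC, of the E14 line) and control ESC, then paused trophoblast stem cells (TSC, from which placental cell types arise) and control TSC. Pausing was by inhibition of mTOR, the kinase that couples nutrient supply to growth, and puts cells in a dormant state like that of an embryo in diapause. The controls are labelled WT in both cell types, and the labels give no inhibitor name, dose or time for the paused cells. E14 is a single line, and how many TSC lines or separate cultures were used is not stated in the labels, so the spread between libraries may be technical.

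The study labels 3 samples in each group, but the file of the third held the same values as that of the second at all 1978 miRNAs in each of the 4 groups. Each such pair was counted as 1 sample, which leaves 8 distinct libraries and n = 2 per group. Depth was low and uneven, with total counts of 73574 and 61749 in paused ESC, 19266 and 13607 in control ESC, 23652 and 30487 in paused TSC, and 115492 and 18725 in control TSC. Levels are given as CPM, counts per 1000000 counts of the library after TMM scaling (trimmed mean of M-values). Of the marker lists used to check the labels, the 6 TSC markers (miR-322, miR-503 and their neighbours) summed to 775 to 1278 CPM over the ESC libraries, against 55262 to 147337 CPM over the TSC libraries. Most of the counts of this list in TSC were of miR-322-5p, with 2682 in paused and 10948 in control TSC. miR-450b-5p did not separate the cell types, at 11 and 0 counts in paused and control ESC, against 5 and 6 in TSC. miR-542-3p had 60 and 6 counts in paused and control ESC, against 47 and 109 in TSC. The ESC list did not separate the cell types, since its miR-290 cluster members were abundant in both. Its miR-302a-3p was at 0 in paused ESC and had 8 counts in control ESC, 0 in paused TSC and 2 in control TSC. miR-302b-3p, miR-302c-3p, miR-302d-3p and miR-367-3p had 3, 2, 1 and 4 counts in paused ESC, 28, 6, 22 and 40 counts in control ESC, and at most 2 counts in either TSC group.

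A miRNA is cut from a hairpin whose strands yield a 5p and a 3p arm. The arm that is kept by an Argonaute protein guides it to mRNAs that pair with the seed, bases 2 to 8, and the other arm is mostly degraded. miR-708 has been studied as a miRNA of cell stress: in mouse cells the transcription factor CHOP, which acts in the unfolded protein response, has been reported to induce it together with its host gene, and rhodopsin mRNA has been reported as a target. In human breast cancer cells it has been described as a suppressor of metastasis that acts on neuronatin. Its seed is shared with miR-28, and the miR-28, miR-151 and miR-708 hairpins are thought to descend from LINE-2 transposons.

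The mature sequences below are shown because the 5p arms share a seed while the 3p arms do not. They are from RefSeq (GRCm38.p6), given 5′ to 3′ with bases 2 to 8 in capitals, except in miR-28b, where the capitals mark the same 7 letters at bases 1 to 7.
miR-708-5p: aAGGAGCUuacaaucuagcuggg
miR-708-3p: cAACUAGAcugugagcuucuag
miR-28a-5p: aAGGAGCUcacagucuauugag
miR-28a-3p: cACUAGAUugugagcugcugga
miR-28b: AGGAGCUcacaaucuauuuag

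The first 8 bases of miR-708-5p and miR-28a-5p are identical, and 16 of the 22 bases that can be set side by side from the first are the same. Counted from 1 at the 5′ end, miR-28a-5p differs from miR-708-5p by U9C, A13G, G18U, C19U, U20G and G21A. Among the 1679 miRNAs of the files with a sequence in the table, these are the only 2 with this seed. In miR-28b the same 7 letters begin at the first base, so its own bases 2 to 8 differ. miR-708-3p and miR-28a-3p differ in their seeds, although both seeds hold the letters ACUAGA, offset by 1 base. They share a run of 8 bases, ugugagcu, further along.

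miR-708-5p lies at chr7:96249450-96249472 and miR-708-3p at chr7:96249496-96249517, both on the plus strand of GRCm38. Their hairpin, Mir708 (96249424 to 96249532), lies within Tenm4, a protein-coding gene on the same strand (96171246 to 96911093) that encodes a teneurin, a large transmembrane protein best known from neural development. The hairpin is intronic in all 7 annotated Tenm4 transcripts that span it. No mRNA was measured here, so the level of Tenm4 is not known in these cells.

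The counts of miR-708 lay almost wholly in the ESC libraries, and most of them were of the 5p arm. In bulk RNA, fewer cells of a type and less RNA per cell cannot be told apart. miR-708-5p had 103 and 82 counts in the libraries of paused ESC, and 34 and 41 counts in those of control ESC. In TSC it had 1 and 0 counts in paused cells, and 1 and 0 counts in control cells. Every ESC library held more of it than any TSC library, although control TSC replicate 1 was the deepest of all. Scaled, these counts stood at 1284 and 1268 CPM in paused ESC, 1550 and 2620 CPM in control ESC, 41.3 and 0 CPM in paused TSC, and 12.7 and 0 CPM in control TSC. The group means were 1276 ± 11.3 CPM in paused ESC, 2085 ± 757 CPM in control ESC, 20.7 ± 29.2 CPM in paused TSC and 6.37 ± 9.01 CPM in control TSC (SD, n = 2 each).

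miR-708-3p, the minor arm, had 4 and 6 counts in paused ESC, and 9 and 7 counts in control ESC. It had 0 counts in every TSC library. In CPM these were 49.9 and 92.8 in paused ESC and 410 and 447 in control ESC, so the 2 groups did not overlap. The means were 71.3 ± 30.4 CPM in paused ESC and 429 ± 26.3 CPM in control ESC (SD, n = 2 each). A count of 0 allows up to 3 counts, worth 52.4 CPM over the paused TSC libraries and 31.5 CPM over the control TSC libraries, and such limits cover counting error only. Over the 206 miRNAs that passed the filter on low counts, miR-708-3p had the lowest mean CPM over all libraries.

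**Figure D1:**
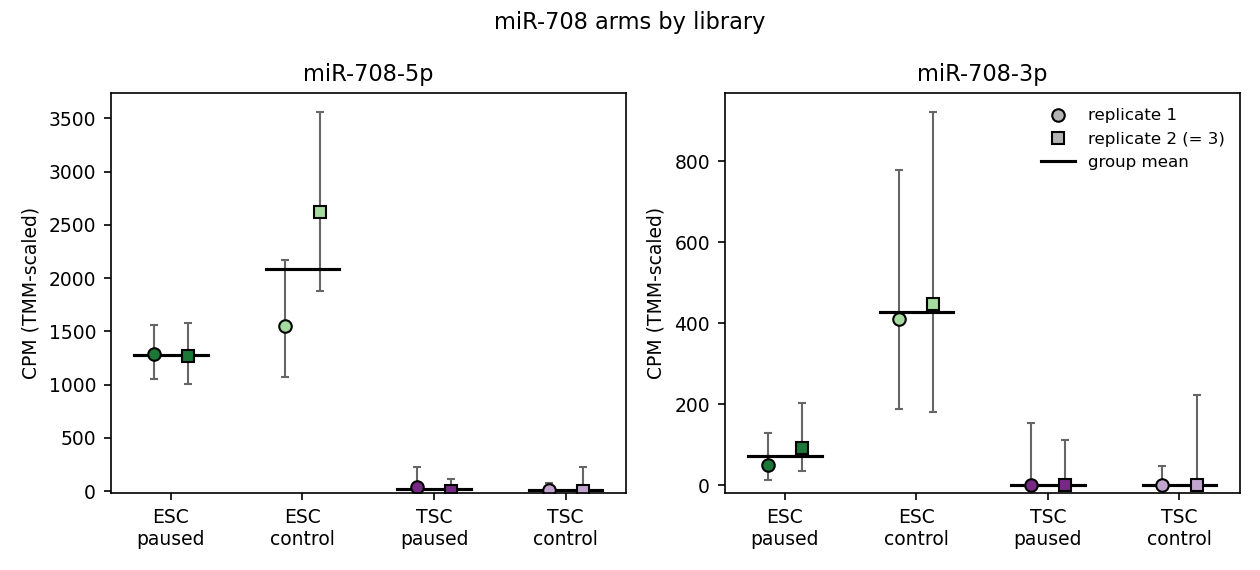
TMM-scaled CPM of miR-708-5p (left) and miR-708-3p (right) in each of the 8 distinct libraries, with exact 95% Poisson intervals for counting error as bars and the group mean as a black line. The 5p arm stands at 1268 to 2620 CPM in ESC and at 41.3 CPM or less in TSC, and the 3p arm is lower in paused than in control ESC.

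By pooled level, miR-708-5p ranked 52 of 480 miRNAs detected in paused ESC and 42 of 399 in control ESC, and miR-708-3p ranked 223 and 130. The order of the groups for the 5p arm was control ESC, paused ESC, paused TSC, control TSC. The first 2 were not told apart by the test given below, and the last 2 rest on 1 count each.

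The excess in ESC, for which miR-708 was picked, can be given only as ratios with wide limits. In paused cells the pooled 5p level was 73.1 times higher in ESC than in TSC, on 185 counts against 1 (95% counting interval 12.97 to 2904). In control cells it was 190 times higher, on 75 counts against 1 (33.0 to 7594). For the 3p arm, with the 0 counts of paused TSC set to 3, the paused ESC level was 1.32 times that of paused TSC, and the exact 95% lower limit of the ratio was 0.886, so an excess in paused cells was not detectable at this depth. In control cells the 3p level in ESC was 13.5 times that in TSC with the 0 counts of control TSC set to 3. The exact 95% lower limit of the ratio was 9.76. Without control TSC replicate 1, the deepest library, the ratio with 3 counts set was 1.48 on the log2 scale, against 3.75 with it. With TSC set to at least 3 counts for every miRNA, miR-708-5p ranked 18 of 206 by this ratio in paused cells, between miR-409-3p (24.99-fold) and miR-135b-5p (22.8-fold), at 24.4-fold itself. In control cells it ranked 4 of 206 at 63.3-fold, equal to miR-142a-3p (63.3-fold) and above miR-142a-5p (62.2-fold). Without control TSC replicate 1 the control value was 3.71 on the log2 scale, against 5.98 with it, since 3 counts are then worth more. Libraries of ESC and TSC did not overlap, with ESC higher, for 45.1% of tested miRNAs in paused cells and for 39.3% in control cells, and nothing is read from the arms' place in these shares.

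Part of the blood miRNA list was also higher in ESC than in TSC. Its 6 members, which include miR-142a, summed to 4610 to 5225 CPM in paused ESC and 7839 to 9650 CPM in control ESC, against at most 41.3 CPM in paused TSC and 191 CPM in control TSC, while the defining miR-223-3p and miR-451a were at 0 in all 4 groups. The sum was mostly miR-150-5p in paused ESC, with 659 counts against 36 of miR-142a-5p and 20 of miR-142a-3p. In control ESC these 3 had 76, 172 and 75 counts. Their pause effects in ESC were opposite, at a log2 fold change of 1.20 for miR-150-5p, −4.25 for miR-142a-5p and −3.86 for miR-142a-3p. The part of the blood list in the ESC excess of miR-708 was not tested. The 10 fibroblast markers, a list for feeder cells, summed to 882 to 1085 CPM in paused ESC, 831 to 1003 CPM in control ESC, 620 to 726 CPM in paused TSC and 1023 to 1490 CPM in control TSC. In paused ESC, control ESC, paused TSC and control TSC, miR-143-3p had 90, 24, 14 and 59 counts. In the same order miR-145a-5p had 41, 9, 0 and 12, and miR-152-3p had 0, 1, 23 and 43. miR-199a-5p and miR-199a-3p of that list were at 0 in all 4 groups. The remaining members had at most 10 counts in any group. Of the 6 neural markers, miR-124-3p, miR-9-5p, miR-9-3p and miR-138-5p were at 0 in all 4 groups. miR-219a-5p had 2 counts in paused ESC, 1 in control ESC, 6 in paused TSC and 11 in control TSC. miR-128-3p had 4 counts in paused ESC, 0 in control ESC, 0 in paused TSC and 1 in control TSC.

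Pausing of ESC was not used to choose miR-708 and was tested with edgeR's quasi-likelihood test across all 206 miRNAs. The levels of both arms were lower in paused ESC. For the 3p arm the log2 fold change was −2.57 ± 0.99 (SE), with a Benjamini-Hochberg adjusted p of 0.0367. Only the control ESC libraries carried this arm past the filter on low counts, so the filter favoured this direction and the call is not support for a decrease. The 5p arm did not pass, at −0.68 ± 0.37 (SE) and an adjusted p of 0.167. For both arms each paused library stood below each control library, a pattern seen in this direction for 34% of tested miRNAs. Of the 206 miRNAs 27.7% were called, 19.4% lower and 8.25% higher, so a called decrease was common in this comparison. The split of calls moved with the scaling: 17 were higher and 40 lower with TMM, 29 and 37 with the median of ratios, and 41 and 33 with TMM that left out the miR-290 cluster.

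The counts behind the 3p call were few: 10 in paused ESC at 3.85 times the scaled depth, against 16 in control ESC. At the pooled paused level, 2.60 counts would have been found in control ESC. The pooled level in paused ESC was 0.162 times that in control ESC (95% counting interval 0.0658 to 0.38). For the 5p arm the same ratio was 0.64 (0.487 to 0.849). The 5p arm passed the filter in both ESC groups. The 3p call was lost with each of the 8 libraries left out in turn (adjusted p of 0.0658 to 0.38 in edgeR), with DESeq2 (adjusted p = 0.211) and with the replicate number as a block (adjusted p = 0.104). Without control ESC replicate 2, the shallowest library, the log2 fold change of miR-708-5p was 0.07 (edgeR adjusted p = 0.956), while the median of all tested miRNAs moved to 0.31, so relative to that median the arm stood at −0.24.

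**Figure D2:**
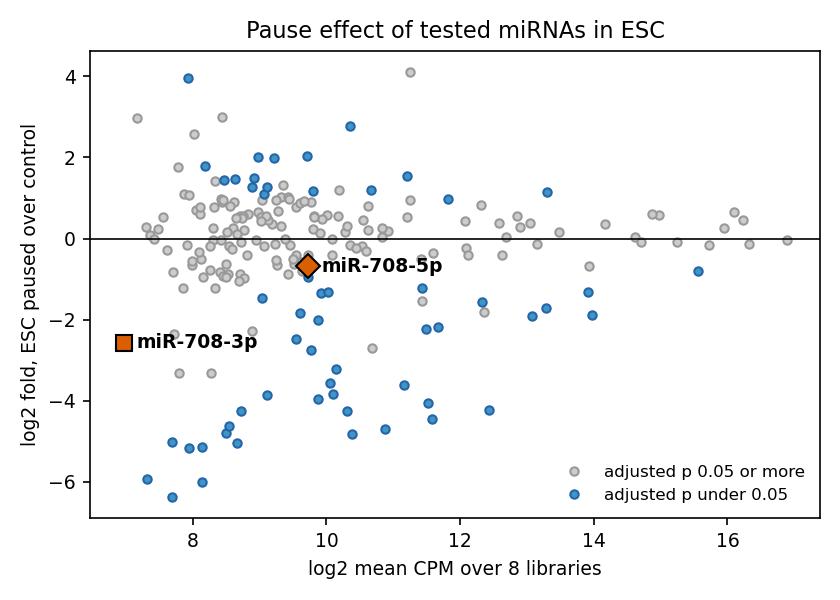
Log2 fold change of paused over control ESC for the 206 tested miRNAs, against their log2 mean CPM over the 8 libraries. Blue points passed an adjusted p of 0.05 in edgeR, and orange symbols mark miR-708-5p at −0.68 and miR-708-3p at −2.57, the tested miRNA with the lowest mean level.

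Scaling moved these values together with the median of all tested miRNAs, which was −0.03 with TMM, 0.11 with the median of ratios, −0.12 with the total count alone and 0.36 with TMM that left out the miR-290 cluster. Taken relative to that median, the change of miR-708-5p was −0.65, −0.67, −0.66 and −0.64 under the 4 scalings, and that of miR-708-3p was −2.54, −2.55, −2.55 and −2.56. A change of scaling moves all log2 fold changes of a comparison by nearly the same amount. The steadiness of these values follows from that and is no check of robustness. By log2 fold change in paused ESC with TMM, miR-708-3p was the 27th lowest of the 206 miRNAs and miR-708-5p the 62nd lowest.

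In TSC there was too little miR-708 for a pause effect. The 5p arm had 1 count in each state and the 3p arm had 0, so both groups lie at or under the limit of 3 counts and no fold is given. In this comparison 18.9% of tested miRNAs were called, 1.94% higher and 17% lower in paused TSC, and neither arm of miR-708 was among them. The pause effect in ESC minus that in TSC was −1.30 ± 1.95 (SE) on the log2 scale for miR-708-5p in the edgeR fit, with an adjusted p of 0.677. With 1 count of the 5p arm in each TSC group, this test cannot decide whether the pause effects differ, and nothing is read from its result. The value depends on how the fit treats single counts. For the background, 26.2% of miRNAs were called in that test. For the 3p arm no such difference can be fitted with 0 counts in TSC.

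The balance of the arms needs no scaling between libraries, since both are counted in the same one. The 5p arm made up 96.3% of 107 miR-708 counts and 93.2% of 88 counts in the libraries of paused ESC, against 79.1% of 43 and 85.4% of 48 counts in those of control ESC. Both paused libraries were above both control libraries. The exact 95% binomial intervals were 90.7% to 99.0% and 85.7% to 97.5% in paused ESC, and 64.0% to 90.0% and 72.2% to 93.9% in control ESC, so single libraries overlap across the groups within counting error. The means were 94.7% ± 2.18 in paused ESC and 82.2% ± 4.49 in control ESC (SD, n = 2 each), a difference of 12.5 percentage points. Put as counts of 5p per count of 3p, the libraries had 25.8 and 13.7 in paused ESC, and 3.78 and 5.86 in control ESC. The exact two-sided permutation test gave p = 0.333, the smallest that 2 libraries against 2 allow. The pooled shares were 94.9% (exact 95% binomial interval 90.8% to 97.5%) in paused ESC and 82.4% (73.0% to 89.6%) in control ESC. These intervals pool the 2 libraries of a group and cover counting error only, not the spread between libraries. The difference in share rests on 10 counts of the 3p arm in paused ESC and 16 in control ESC.

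**Figure D3:**
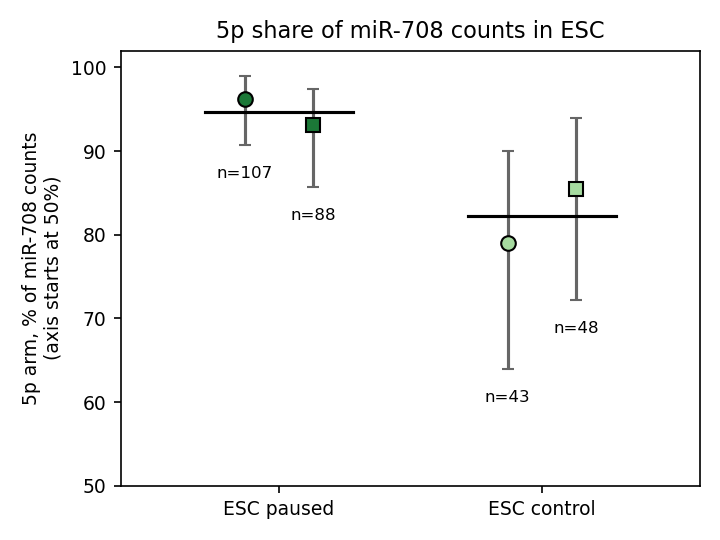
Share of miR-708 counts on the 5p arm in each ESC library, in percent, with exact 95% binomial intervals, the number of counts and the group mean as a black line. The axis starts at 50%. Paused libraries stand at 96.3% and 93.2%, control libraries at 79.1% and 85.4%.

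Other hairpins put this shift in context. Of the 49 hairpins with at least 20 counts of their arms together in every ESC library, 20 also had at least 3 counts of each arm in each, so that the ratio of the arms needs no added count. Their log2 ratio of 5p to 3p counts shifted between paused and control ESC by −0.83 to 2.00, with a median of 0.58. miR-708 had the highest shift toward 5p of the 20, at 2.00. Next came miR-130b at 1.95 and miR-363 at 1.74, and 5 of the 20 shifted by more than 1. A higher 5p share in both paused libraries than in both control libraries was found for 9 of these 20 hairpins (45%), and for 11 of all 49 (22.4%), so miR-708 is 1 of several. The rank of miR-708 depended on the measure. With 0.5 added to each arm it was 1 of 49, and 5 of 75 among hairpins with at least 10 counts of the arms together. By percentage points it was 5 of 49. Where an arm is at 0, the ratio with 0.5 added moves with depth alone. These rankings were chosen after the arm counts of miR-708 had been seen.

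**Figure D4:**
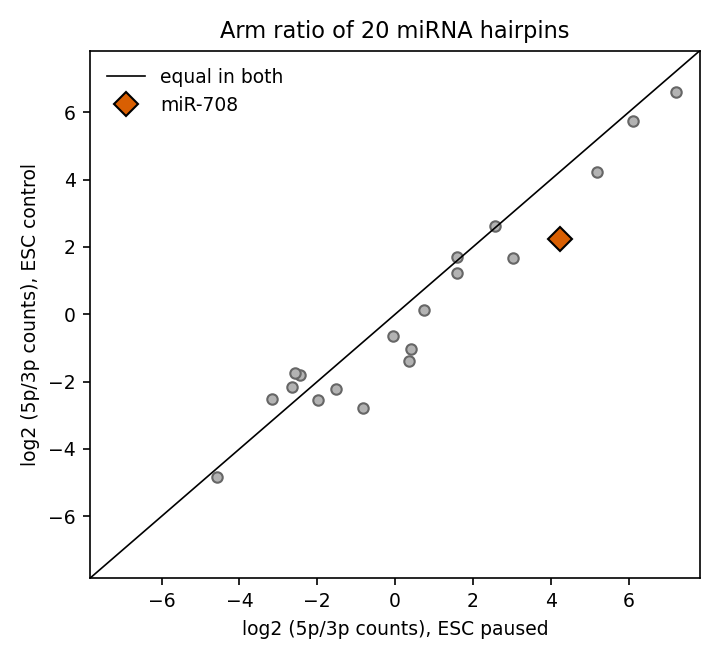
Log2 ratio of 5p to 3p counts in paused ESC (horizontal) and control ESC (vertical) for the 20 hairpins with at least 3 counts of each arm in every ESC library, each value the mean of 2 libraries. Points on the line are equal in both states. miR-708, the orange diamond, lies to the right of the line, at 4.23 in paused ESC and 2.23 in control ESC.

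miR-28a-5p, the other carrier of the seed, was present in both cell types. It had 14 and 13 counts in paused ESC, 8 and 5 in control ESC, 12 and 20 in paused TSC, and 39 and 5 in control TSC. In CPM it stood at 188 ± 18.8 in paused ESC, 342 ± 31.9 in control ESC, 550 ± 76.9 in paused TSC and 399 ± 138 in control TSC (SD, n = 2 each). miR-708-5p made up 88.0% and 86.3% of the counts with the shared seed in paused ESC, and 81.0% and 89.1% in control ESC. In TSC it made up 7.69% of 13 and 0% of 20 counts in paused cells, and 2.50% of 40 and 0% of 5 counts in control cells. The upper limits of the exact 95% binomial intervals were 36.0%, 16.8%, 13.2% and 52.2% in that order. The seed was thus carried mainly by miR-708-5p in the ESC libraries and mainly by miR-28a-5p in the TSC libraries. For control TSC replicate 2, with 5 counts, the interval is too wide to settle this. With both miRNAs summed, the seed stood at 1464 ± 7.48 CPM in paused ESC, 2427 ± 725 CPM in control ESC, 571 ± 47.7 CPM in paused TSC and 405 ± 147 CPM in control TSC. Since miR-708 was picked for its ESC excess, the difference between cell types is a description.

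**Figure D5:**
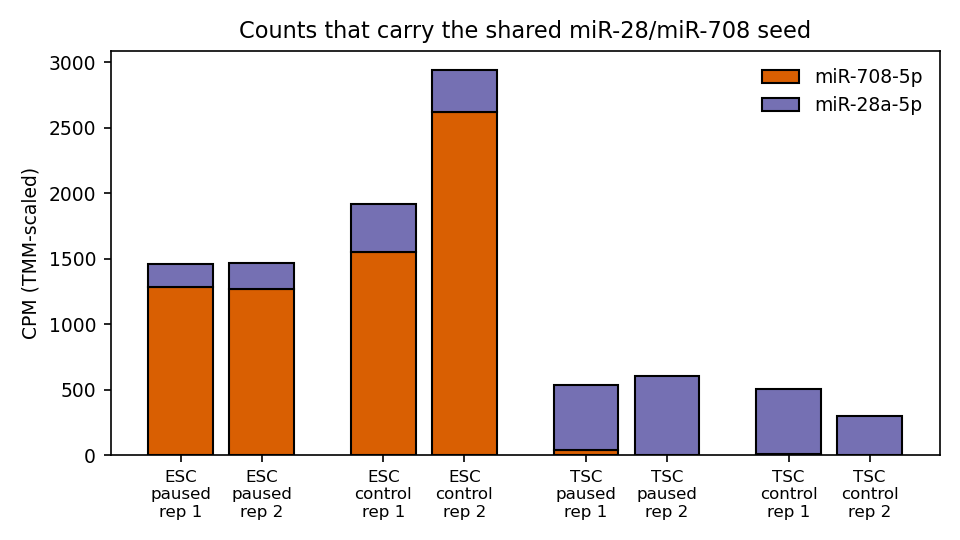
TMM-scaled CPM of miR-708-5p (orange) and miR-28a-5p (violet), stacked, in each of the 8 distinct libraries. The orange part makes up 81.0% to 89.1% of each ESC bar and at most 7.69% of a TSC bar.

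The list of miR-28 and miR-151 arms held 6 miRNAs, of which 4 were tested. Between paused and control ESC 0 of the 4 were called in either direction in edgeR, where 27.7% of all tested miRNAs were called. Their median log2 fold change was −0.18, against −0.03 over all 206. Between paused and control TSC 0 of 4 were called, where 18.9% of all were. Their median there was 0.37, against −0.39 over all. With only 4 tested, nothing is read from the absence of calls. miR-28a-5p, whose hairpin is intronic in Lpp on chromosome 16, had the largest decrease of the 4 in paused ESC, −0.87 ± 0.61 (SE; edgeR adjusted p = 0.303), with no overlap between the groups, as for 34% of tested miRNAs. miR-28a-3p stood at −0.18 (adjusted p = 0.876). miR-151-5p, from an intron of Ptk2 on chromosome 15, stood at 0.91 (adjusted p = 0.372), and miR-151-3p at −0.17 (adjusted p = 0.849). Both miR-28b and miR-28c had 0 counts in all 8 libraries. At an unadjusted p under 0.05, edgeR passed 77 of the 206 miRNAs in ESC and 57 in TSC, and none of these 4 in either. DESeq2 called 0 of the 4 in each, where it called 37 of the 206 in ESC and 12 in TSC.

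Of 11 miRNAs linked to the unfolded protein response, 6 were tested. In paused ESC 1 was higher and 1 lower, where 8.25% of all tested miRNAs were higher and 19.4% lower. They were miR-25-3p, of the miR-106b-25 cluster that the PERK branch has been reported to repress, at a log2 fold change of 1.15 (edgeR adjusted p = 0.00272), and miR-34a-5p, reported as cleaved by IRE1, at −1.90 (adjusted p = 1.82e-06). The other tested members of the miR-106b-25 cluster were not called, with miR-106b-5p at −0.19 and miR-93-5p at 0.55. Nor were miR-17-5p, at −0.68 (edgeR adjusted p = 0.0924), and miR-96-5p, at −0.34 (edgeR adjusted p = 0.81). The median of the 6 was −0.26, against −0.03 over all 206. In paused TSC edgeR and DESeq2 called 0 of 6, where edgeR called 18.9% of all tested miRNAs and DESeq2 called 12 of 206. An unadjusted p under 0.05 in edgeR was found for 1 of the 6, and for 57 of the 206. miR-211-5p, reported as induced by PERK in human and mouse cells, had 7 counts in paused ESC and 0 in the other 3 groups, and did not pass the filter. Its pooled level in paused ESC, 48.3 CPM, lay under the upper 95% counting limit in the shallower control ESC, 98.1 CPM. The 0 in control ESC therefore does not set the 2 states apart. miR-30c-2-3p had 3 counts in paused ESC, 1 in control ESC, 0 in paused TSC and 7 in control TSC. The other 3, miR-125b-5p, miR-199a-5p and miR-204-5p, had 0 counts in all libraries.

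The 5 miRNAs whose levels ran most like those of miR-708-5p were taken by Pearson's r of log2 CPM over the 8 libraries. The libraries fall into the 2 cell types, and 36 of the other 205 miRNAs had an r above 0.9. The highest was miR-363-3p, of the X-linked miR-106a-363 cluster, with r = 0.993. It stood at 1147 ± 194 CPM in paused ESC and 1784 ± 460 CPM in control ESC, with 0 counts in paused TSC and 1 in control TSC. Its pause effect in ESC was −0.62 (edgeR adjusted p = 0.208). Then came miR-494-3p (r = 0.982), miR-376c-3p (0.980) and miR-323-3p (0.977), of the imprinted Dlk1-Dio3 region, and miR-20b-5p (0.976), of the same X-linked cluster as miR-363-3p. Their pause effects in ESC were between 0.15 and 0.31, none called. By Spearman's rho 0 of these 5 stayed among the first 5, and with the total count as the scaling 4 did. miR-708-3p ranked 42 by r, at 0.885.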

How the data were processed

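Per the labels' protocols, small RNA was column-purified, and libraries were made with the SMARTer smRNA-seq kit and sequenced on a HiSeq4000. The authors deposited raw counts of reads per mature miRNA, with GRCm38 as the genome build per the submitters' processing notes. Which aligner and counter were used, and how multi-mapping reads were treated, is not given in the sources used here. No molecular identifiers are mentioned, so reads copied from the same molecule cannot be told apart. The intervals treat each read as independent and cover counting error only, and for this reason may be too narrow.

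Identical files were counted once. Counts were fitted with edgeR 4.0.16 in R 4.3.3: filterByExpr (10 counts, about 369 CPM, in 2 libraries; 206 of 1978 miRNAs), TMM scaling, 1 mean per group, 4 residual degrees of freedom, common dispersion 0.0456, two-sided tests at a Benjamini-Hochberg adjusted p under 0.05. The prior degrees of freedom were infinite, so spread was pooled over miRNAs. The SE of an edgeR log2 fold change was its absolute value over the square root of the quasi-likelihood F statistic. It therefore restates the test and adds no separate measure of spread. Intervals were exact at 95%: Poisson for CPM, Clopper-Pearson for shares and, conditional on the sum, for ratios of counts. Alternatives were DESeq2 1.42.0, other scalings and filters, every file counted, fits on the compared groups, a replicate block and each library left out. Loci came from GENCODE M21 (GRCm38).

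Members, lists and tests were chosen with earlier results of these data known. Named miRNAs were the miR-708 arms, the miR-28 and miR-151 arms, tested stress-list members (untested ones are named after their values were seen), the 5 most like miR-708-5p, and neighbours in rank. The labels do not say that a replicate number marks a shared culture or day, so the numbers were not taken as pairs. The differences between replicates 1 and 2 in paused and in control cells had an r of −0.07 in ESC and −0.18 in TSC over 206 miRNAs. With a single difference per state, this cannot decide whether the numbers mark pairs.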

Additional observations from a re-analysis of the deposited data

How the results depend on the processing

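The log2 fold change of miR-708-3p in paused ESC was negative under all 18 alternatives but kept its adjusted p under 0.05 under 6: the total count, TMM without the miR-290 cluster, no filter, every file counted, only the compared groups, and the block crossed in TSC. It was −2.43 with the median of ratios, −2.35 with the filter at 10 CPM, −2.47 with DESeq2, −2.59 with the replicate block, and −2.81 to −2.18 with 1 library left out. For miR-708-5p it was −0.80 with every file counted (adjusted p = 0.00823, where identical files count as replicates) and −0.73 to 0.069 with 1 library left out, reversed without control ESC replicate 2 (0.069, or −0.24 relative to the median of all tested miRNAs, 0.31), and −0.66 with the replicate block. Its difference of pause effects ran from −3.20 to 1.602 with 1 library left out, reversed without paused TSC replicate 1 (1.602), at −2.08 with the block. No fold is given for TSC pausing, where the fitted value rests on 1 count in each group, so no alternative is given either. The 5p share was 9.31 to 15.7 percentage points higher in paused than in control ESC with 1 library left out.

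The log2 ratio of ESC over TSC, with TSC set to at least 3 counts, moved with the scaling. For miR-708-5p in paused cells (4.61) it was 5.01 with the median of ratios, 4.62 with the total count, 5.35 with TMM without the cluster, 4.93 with no filter, 5.25 at 10 CPM, 5.01 with DESeq2, 5.26 with every file counted, and 3.58 to 4.83 with 1 library left out. In control cells (5.98) it was 6.53 with the median of ratios, 6.67 with the total count, 6.71 with TMM without the cluster, 6.53 with DESeq2, and 3.71 (without control TSC replicate 1) to 6.64. For miR-708-3p in paused cells (0.40) it was 1.14 with TMM without the cluster, 1.04 at 10 CPM, 1.20 with every file counted, and −0.63 to 0.79; in control cells (3.75) it was 4.30 with the median of ratios, 4.44 with the total count, 4.48 with TMM without the cluster, 4.16 with no filter, 4.30 with DESeq2, 4.03 with every file counted, and 1.48 to 4.19.

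Called miRNAs in ESC (57) numbered 37 with DESeq2, 94 with every file counted, 44 with the replicate block and 41 to 75 with 1 library left out. In TSC (39) they numbered 24 with the median of ratios, 19 with TMM without the cluster, 16 with no filter, 12 with DESeq2, 19 with only the compared groups, 12 with the replicate block, 25 with the block crossed in TSC (added after seeing the data), and 7 to 32 with 1 library left out. The split was 17 higher and 40 lower in ESC (29 and 37 with the median of ratios, 41 and 33 with TMM without the cluster), and 4 and 35 in TSC (6 and 18 with the median of ratios, 14 and 12 with the total count, 6 and 13 with TMM without the cluster). Of the 5 miRNAs most like miR-708-5p, 0 were shared with Spearman's rho; r within ESC was not run, with 4 libraries. The rank of miR-708 by arm shift (1) was 5 at a minimum of 10 counts and 5 by percentage points, alternatives added after seeing the data. The causes of these changes were not tested. In the TSC libraries 3 counts are worth 38.2 to 181 CPM.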
